A study of Mus musculus with 12 samples.

Results

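Neuronal transmitter and synapse genes were followed in adult mouse brain through the probe sets that the platform annotation gives to 8 genes, namely Slc17a7, Gad1, Gad2, Snap25, Syt1, Syp, Nefl and Th. An annotated probe set was found for 7 of the 8 genes, out of 12393 genes with 1 in the same table. These genes had 10 of the 22626 non-control probe sets: Gad1, Syt1 and Syp had 2 each, and Gad2, Snap25, Nefl and Th had 1 each. Slc17a7, which encodes the vesicular glutamate transporter of cortical neurons, was not analysed here. Levels were read as log2 signals on Affymetrix 3' expression arrays, where a difference of 1 is a doubling of signal. There were 12 arrays in 4 genotypes of 3 arrays each. The tested animals carried knockouts of both Usp18 and Ifnar1 (USP18ko:IFNARko, called the double knockout below), of Usp18 alone (USP18ko) or of Ifnar1 alone (IFNARko), and the wild type (WT) carried neither. Usp18 encodes a protease that restrains type I interferon signalling, and Ifnar1 encodes a chain of the interferon receptor that Usp18 acts on. All mice were adult, untreated and kept free of specific pathogens. The labels give no strain, sex or design of the knockout alleles. Each sample was a lysate of the total brain, so fewer cells of a type and less RNA per cell cannot be told apart.

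Neurons release transmitter when vesicles fuse with the cell membrane at the synapse. SNAP25, encoded by Snap25, is part of the SNARE complex that drives this fusion, synaptotagmin 1 (Syt1) is its calcium sensor, and synaptophysin (Syp) is an abundant protein of the vesicle membrane. Inhibitory neurons make GABA with the glutamate decarboxylases GAD67 and GAD65, encoded by Gad1 and Gad2, dopamine and noradrenaline neurons start catecholamine synthesis with tyrosine hydroxylase (Th), and the neurofilament light chain (Nefl) fills large axons.

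The genotype labels were checked first. The Ifnar1 probe set read 6.56, 6.56 and 6.68 in the double knockout and 6.24, 6.59 and 6.47 in IFNARko, against 8.01, 7.76 and 7.97 in USP18ko and 8.21, 7.44 and 7.85 in WT. The Usp18 probe set, near the bottom of the scale, read 3.50 to 3.76 in the double knockout, USP18ko and IFNARko and 4.04 to 4.36 in WT. IFNARko carries no Usp18 knockout by its label but read as low, so this probe set does not check the Usp18 label against IFNARko. Whether these probe sets lie within the deleted parts is not stated in the labels. The Ifnar1 signals separated by the Ifnar1 label in every array. An unchanged signal from a probe set outside the deleted parts would not have spoken against a label. IFNARko replicate 1 stood apart in its RNA controls: the 3' probe set of beta-actin exceeded the 5' probe set by 1.48 on the log2 scale, against 0.20 to 0.54 in the other 11 arrays, and that of Gapdh by 0.47, against -0.37 to -0.17. WT replicate 2 stood apart in myelin genes, whose mean log2 signal over 10 genes was 9.57 there, against 7.76 and 7.37 in WT replicates 1 and 3 and 7.64 to 8.48 in the 9 knockout arrays. The X-inactivation transcript Xist read 11.21, 10.34 and 11.34 in the double knockout and 10.17 in WT replicate 1, against 4.98 to 5.69 elsewhere. The Y-linked Eif2s3y read 3.05, 7.16 and 3.22 in the double knockout and 3.18 in WT replicate 1, against 7.26 to 8.94 elsewhere, so the double knockout differed from both single knockouts in sex-linked transcripts as well as in genotype, and these cannot be told apart. Double knockout replicate 2 carried both signals.

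In no genotype did a member gene pass the test against WT. Of the 10 probe sets, 0 were called in double knockout against WT, 0 in USP18ko against WT and 0 in IFNARko against WT (limma, Benjamini-Hochberg adjusted p under 0.05 over all 22626 probe sets). Over all probe sets, the share called was 0% for double knockout against WT, 0.977% for USP18ko against WT and 0.0177% for IFNARko against WT. At an unadjusted p under 0.05, 0 of the 10 passed in each of these comparisons, beside 4.2%, 4.01% and 9.17% of all probe sets in that order of comparisons. The median log2 difference of the 10 was -0.00 in double knockout against WT, -0.01 in USP18ko against WT and -0.13 in IFNARko against WT, beside -0.01, -0.02 and -0.01 over all probe sets. The labels tie no replicate to an animal, and p-values here measure a spread between samples that may be technical.

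**Figure D1:**
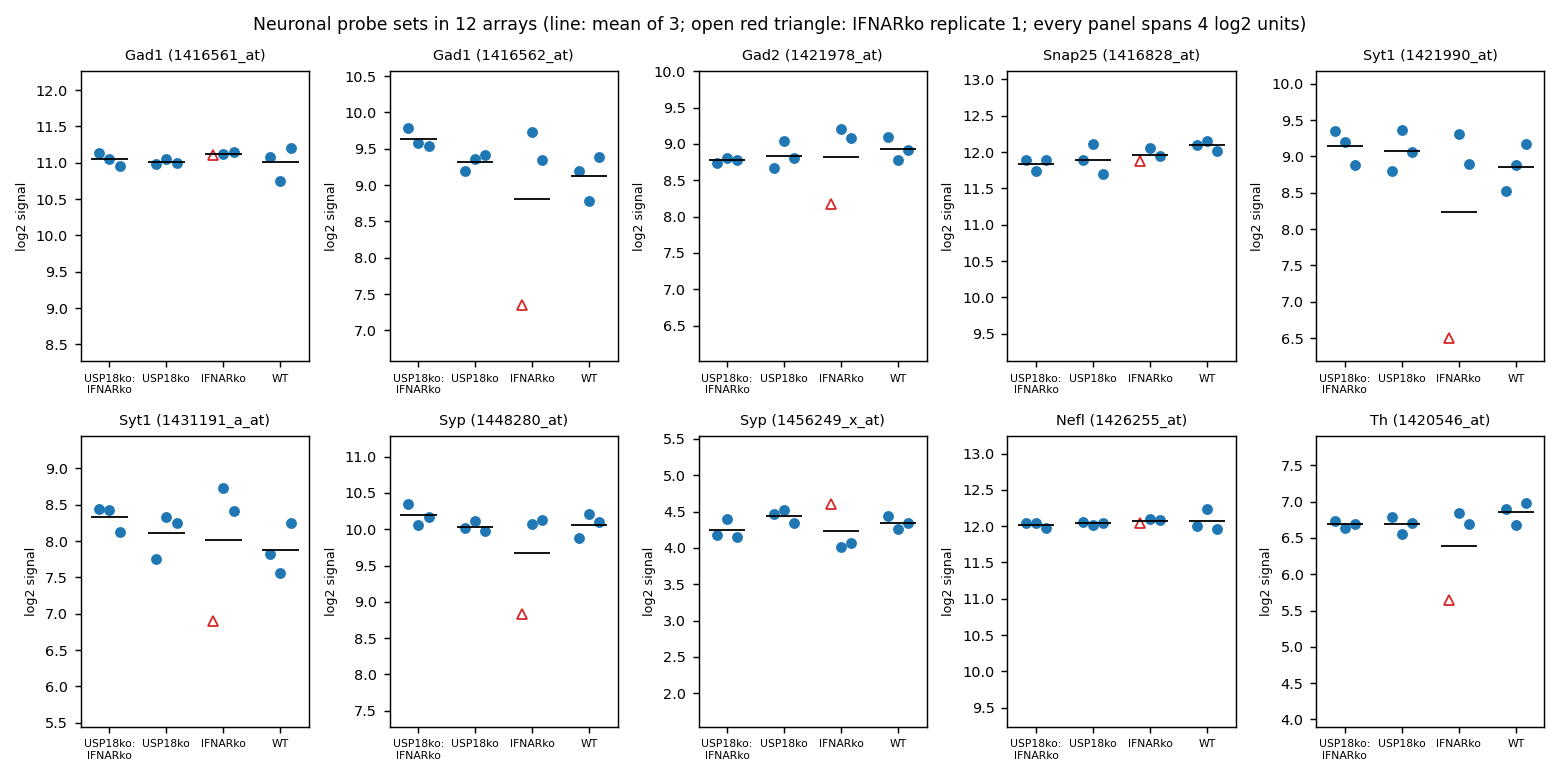
Log2 signal of each of the 10 neuronal probe sets by array (points) and genotype mean (lines). Every panel spans the same height in log2 units. IFNARko replicate 1 (open triangle) lies far below the other arrays for Gad1 1416562_at (7.35) and Syt1 1421990_at (6.49) but among them for Gad1 1416561_at (11.10), Snap25 (11.87) and Nefl (12.05).

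Of the GABA-synthesis genes, Gad1 has probe sets that differ in steadiness. Probe set 1416561_at read 11.14, 11.06 and 10.95 in the double knockout, 10.98, 11.05 and 10.996 in USP18ko and 11.10, 11.12 and 11.15 in IFNARko, against 11.08, 10.75 and 11.20 in WT. WT held both the lowest and the highest array and so overlapped every other genotype, while the IFNARko arrays all lay above the USP18ko arrays. The order of means ran from IFNARko through the double knockout and WT to USP18ko and spanned 0.12. Differences from WT were 0.04 in the double knockout (95% interval -0.21 to 0.29), -0.00 in USP18ko (-0.25 to 0.25) and 0.11 in IFNARko (-0.14 to 0.36).

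Gad1 probe set 1416562_at read 9.78, 9.59 and 9.54 in the double knockout, 9.20, 9.36 and 9.41 in USP18ko and 7.35, 9.73 and 9.35 in IFNARko, against 9.20, 8.79 and 9.39 in WT. The 3 double knockout arrays lay above all WT and all USP18ko arrays, while IFNARko replicate 1 was the lowest of the 12 and IFNARko replicate 2 the second highest. The mean was 9.64 ± 0.13 in the double knockout and 9.13 ± 0.31 in WT (SD, n = 3 each). That difference was 0.51 (SE 0.45, 95% interval -0.48 to 1.5, limma adjusted p = 0.996) with all 12 arrays. Leaving out IFNARko replicate 1, the same 0.51 had an SE of 0.15, an unadjusted p of 0.0060 and an adjusted p of 0.336. The value for IFNARko against WT was -0.32 (SE 0.45) with 12 arrays and 0.41 (SE 0.17, limma adjusted p = 0.381) without that array. The first Gad1 probe set did not show the higher double knockout level, its arrays there spanning 10.95 to 11.14 beside 10.75 to 11.20 in WT.

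Gad2 (1421978_at) read 8.74, 8.80 and 8.78 in the double knockout, 8.67, 9.03 and 8.81 in USP18ko and 8.18, 9.20 and 9.08 in IFNARko, against 9.10, 8.78 and 8.92 in WT. The double knockout arrays lay close together, and IFNARko held both the lowest and the highest array of the series. Against WT the differences were -0.16 in the double knockout (95% interval -0.64 to 0.32), -0.09 in USP18ko (-0.57 to 0.39) and -0.11 in IFNARko (-0.59 to 0.37). The last turned to 0.21 (SE 0.12, limma adjusted p = 0.536) without IFNARko replicate 1. Without it, the double knockout arrays all lay below the remaining IFNARko arrays, with a difference of -0.37 (SE 0.12, limma adjusted p = 0.884).

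Of the vesicle fusion genes, Snap25 (1416828_at) read 11.90, 11.74 and 11.89 in the double knockout, 11.89, 12.11 and 11.69 in USP18ko and 11.87, 12.06 and 11.95 in IFNARko, against 12.10, 12.15 and 12.02 in WT. All double knockout arrays lay below all WT arrays, and IFNARko replicate 1 was not set apart. The mean was 11.84 ± 0.09 in the double knockout, 11.90 ± 0.21 in USP18ko, 11.96 ± 0.09 in IFNARko and 12.09 ± 0.07 in WT (SD, n = 3 each), so WT stood highest and the double knockout lowest. The difference of double knockout against WT was -0.25 (SE 0.12, 95% interval -0.50 to 0.00, limma adjusted p = 0.996), and that of USP18ko against WT was -0.20 (SE 0.12, adjusted p = 1.00). With IFNARko replicate 1 left out, the double knockout value stayed at -0.25 (SE 0.11, limma adjusted p = 0.461).

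Syt1 varied more between arrays than the other fusion genes. Probe set 1421990_at read 9.35, 9.19 and 8.88 in the double knockout, 8.80, 9.36 and 9.07 in USP18ko and 6.49, 9.31 and 8.90 in IFNARko, against 8.52, 8.88 and 9.18 in WT. Probe set 1431191_a_at read 8.44, 8.43 and 8.12 in the double knockout, 7.75, 8.34 and 8.24 in USP18ko and 6.90, 8.73 and 8.41 in IFNARko, against 7.82, 7.56 and 8.25 in WT. In both, IFNARko replicate 1 was the lowest array, and at 1431191_a_at IFNARko replicates 2 and 3 lay above all USP18ko and all WT arrays. At 1421990_at the arrays other than IFNARko replicate 1 overlapped between genotypes. For 1421990_at the difference of IFNARko against WT was -0.63 (SE 0.54, 95% interval -1.81 to 0.56) with 12 arrays and 0.24 (SE 0.22, limma adjusted p = 0.720) without replicate 1. For 1431191_a_at it was 0.14 (SE 0.38, 95% interval -0.69 to 0.97) with 12 arrays and 0.70 (SE 0.22, unadjusted p = 0.00753, limma adjusted p = 0.285) without it. The double knockout differed from WT by 0.28 (SE 0.54) at 1421990_at and by 0.46 (SE 0.38) at 1431191_a_at.

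Syp also had probe sets of different behaviour. Probe set 1448280_at read 10.35, 10.05 and 10.17 in the double knockout, 10.02, 10.12 and 9.97 in USP18ko and 8.83, 10.07 and 10.12 in IFNARko, against 9.88, 10.21 and 10.09 in WT. Apart from IFNARko replicate 1, the arrays of all genotypes overlapped, with differences from WT of 0.13 in the double knockout (95% interval -0.46 to 0.72) and -0.02 in USP18ko (-0.61 to 0.56). IFNARko differed from WT by -0.38 (SE 0.27) with 12 arrays and by 0.04 (SE 0.12) without replicate 1. Probe set 1456249_x_at, whose type can also bind related transcripts, lay low on the scale: it read 4.18, 4.39 and 4.16 in the double knockout, 4.47, 4.52 and 4.34 in USP18ko and 4.60, 4.01 and 4.06 in IFNARko, against 4.44, 4.26 and 4.34 in WT. Here IFNARko replicate 1 was the highest of the 12 arrays and the other IFNARko arrays the lowest. Without replicate 1, IFNARko differed from WT by -0.31 (SE 0.10, unadjusted p = 0.0118, limma adjusted p = 0.301). Syp lies on the X chromosome, and the double knockout arrays and WT replicate 1 carried the Xist signal given above. The part of that signal in the Syp levels was not tested.

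Nefl (1426255_at), the axonal neurofilament gene, was the steadiest: it read 12.04, 12.04 and 11.97 in the double knockout, 12.06, 12.02 and 12.04 in USP18ko and 12.05, 12.09 and 12.08 in IFNARko, against 12.004, 12.24 and 11.96 in WT. The double knockout arrays lay just below all IFNARko arrays, and WT covered both. The 4 genotype means spanned 0.06 on the log2 scale, and differences from WT were -0.05 in the double knockout (95% interval -0.25 to 0.16), -0.03 in USP18ko (-0.23 to 0.18) and 0.01 in IFNARko (-0.20 to 0.21). Its residual SD of 0.08 within genotypes was smaller than that of all but 3.67% of probe sets. These signals were near the top of the scale, which ended at 13.81, and how linear the arrays were at that level was not tested.

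Th (1420546_at), the catecholamine enzyme gene, read 6.73, 6.64 and 6.69 in the double knockout, 6.79, 6.56 and 6.71 in USP18ko and 5.64, 6.84 and 6.70 in IFNARko, against 6.90, 6.67 and 6.98 in WT. Only IFNARko replicate 1 fell outside 6.56 to 6.98. Differences from WT were -0.17 in the double knockout (95% interval -0.70 to 0.37), -0.17 in USP18ko (-0.70 to 0.36) and -0.46 in IFNARko (-0.99 to 0.07). With 11 arrays the last was -0.08 (SE 0.11, limma adjusted p = 0.839).

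**Figure D2:**
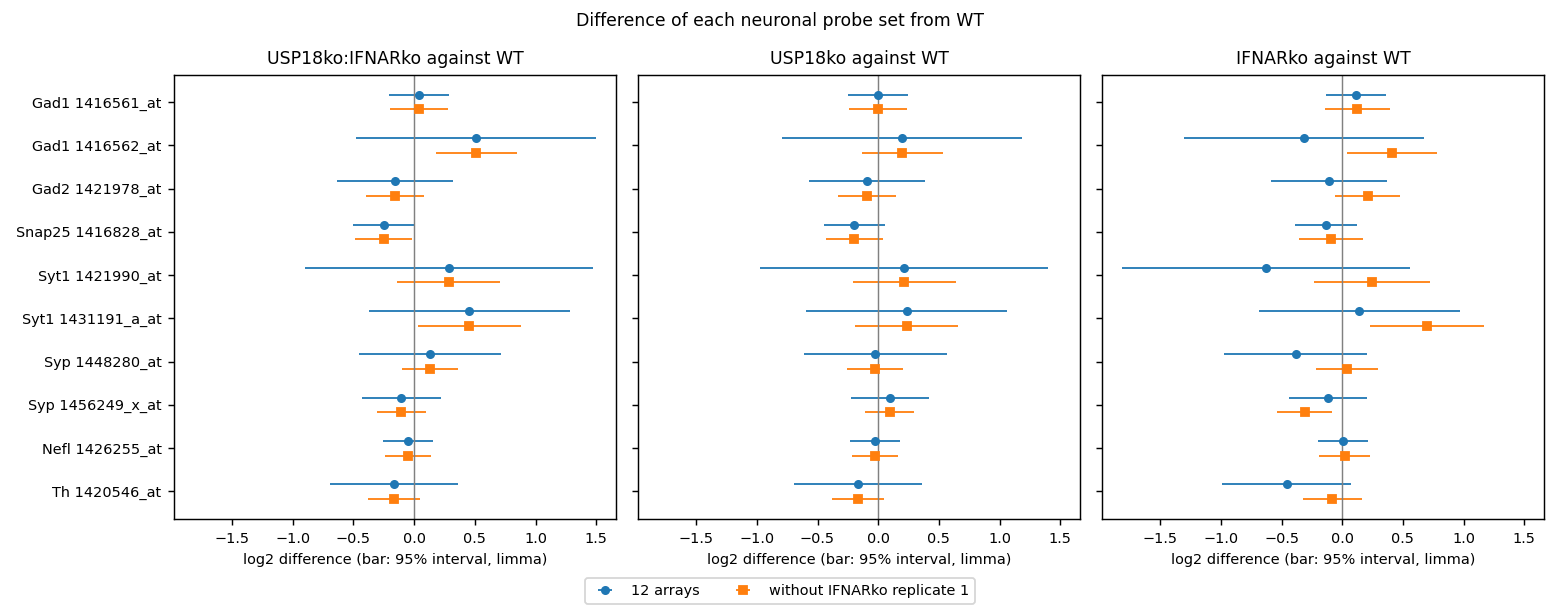
Log2 difference of each neuronal probe set from WT (points) with its 95% interval from limma (bars), with all 12 arrays (circles) and without IFNARko replicate 1 (squares). For Syt1 1421990_at in IFNARko the value is -0.63 with 12 arrays and 0.24 without that array, and all intervals narrow where that array had been far off.

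IFNARko replicate 1 set much of the spread. Relative to the mean of IFNARko replicates 2 and 3, its log2 signal was lower by 1 or more for 5 of the 10 neuronal probe sets, beside 5.80% of all probe sets. The difference was -2.61 at Syt1 1421990_at, -2.19 at Gad1 1416562_at, -1.67 at Syt1 1431191_a_at, -1.26 at Syp 1448280_at and -1.13 at Th. It was -0.96 at Gad2, -0.13 at Snap25, -0.04 at Nefl, -0.03 at Gad1 1416561_at and 0.56 at Syp 1456249_x_at. In none of the other 11 arrays was a neuronal probe set lower by 1 or more than the mean of the other replicates of its genotype. The residual SD within genotypes was 0.80 at Syt1 1421990_at with 12 arrays and 0.29 without this array, and 0.66 and 0.21 at Gad1 1416562_at, beside medians of 0.17 and 0.13 over all probe sets. The same array stood apart in the 3' to 5' signal of the RNA controls, and the part of RNA quality in the low signals was not tested.

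Probe sets of the same gene disagreed in that array. Each was set against its own mean over the other 11 arrays. In IFNARko replicate 1, Gad1 1416561_at deviated by 0.06 and 1416562_at by -2.05, a gap of 2.11, while the gap ran from -0.29 to 0.32 in the other arrays. For Syt1 the gap of 1421990_at over 1431191_a_at was -1.26, against -0.37 to 0.48, and for Syp that of 1448280_at over 1456249_x_at was -1.58, against -0.37 to 0.36. Over the 11 arrays the probe sets of Syt1 ran together (Pearson r = 0.74, Spearman rho = 0.79), those of Gad1 less so by rank (r = 0.67, rho = 0.33), and those of Syp did not (r = -0.45, rho = -0.47). Syp 1456249_x_at read only 4.01 to 4.52 in the 11 arrays. Whether it lay above background is unknown, so its disagreement may not concern Syp RNA. These correlations describe arrays that share genotypes and a common scaling.

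**Figure D3:**
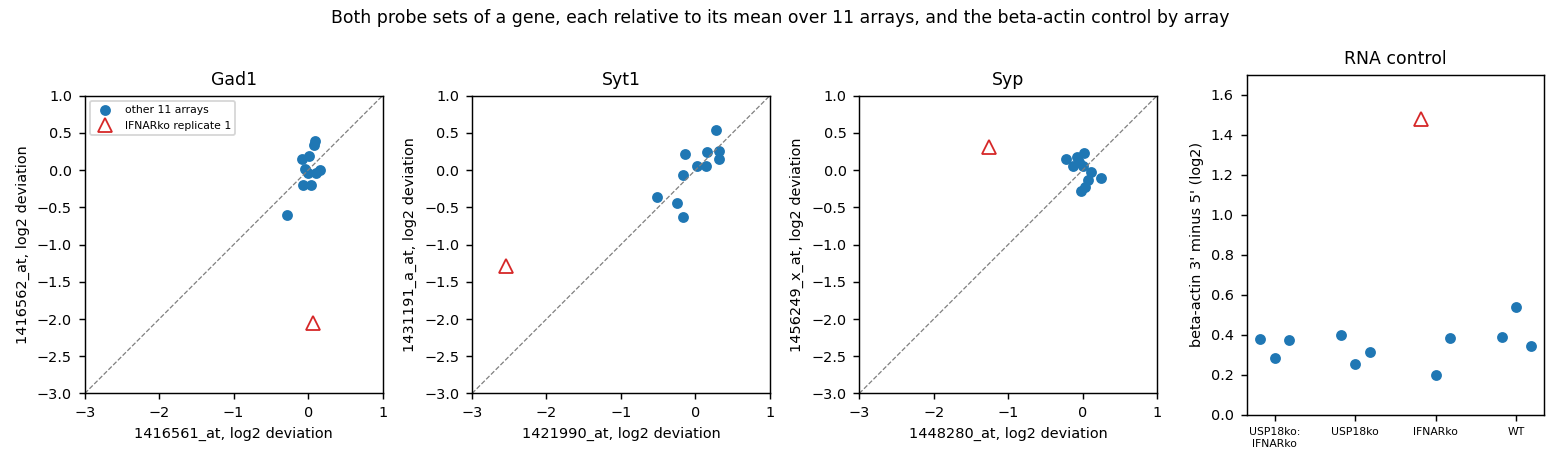
Left panels: deviation of the probe sets of Gad1, Syt1 and Syp from their own means over 11 arrays, in log2 units, 1 point per array, with equal deviations on the dashed line. IFNARko replicate 1 (open triangle) lies far from the other 11 arrays in each. Right panel: log2 excess of the 3' over the 5' beta-actin control by array, 1.48 in IFNARko replicate 1 and 0.20 to 0.54 elsewhere.

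Leaving out IFNARko replicate 1 did not change the calls against WT. Of the 10 probe sets, 0 were called in double knockout against WT, where 0.0133% of all probe sets were called, 0 in USP18ko against WT (1.22%) and 0 in IFNARko against WT (0.0354%). At an unadjusted p under 0.05, 3 passed in double knockout against WT, beside 10.3% of all probe sets: Gad1 1416562_at (0.51), Syt1 1431191_a_at (0.46) and Snap25 (-0.25). In IFNARko against WT, 3 passed, beside 11.9%: Syt1 1431191_a_at (0.70), Gad1 1416562_at (0.41) and Syp 1456249_x_at (-0.31). In USP18ko against WT, 0 passed, beside 7.26%. All differences from WT share the same WT arrays. Among these, WT replicates 1 and 2 were the lowest 2 WT arrays for Gad1 1416562_at and Syt1 1431191_a_at. The lowest was WT replicate 2 in both, at 8.79 and 7.56, the array that stood apart in myelin genes. Over the alternative settings named below, double knockout against WT ran from 0.27 to 0.64 at Gad1 1416562_at. At Syt1 1431191_a_at it ran from 0.10 to 0.64.

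The overlap of the arrays was counted as well. With all 12 arrays, groups did not overlap for 2 of the 10 probe sets in double knockout against WT, Gad1 1416562_at (higher) and Snap25 (lower), beside 15.9% of all probe sets. They did not overlap for 0 of the 10 in USP18ko against WT (9.5% of all) and 0 in IFNARko against WT (11.4%). Without IFNARko replicate 1, 2 of the 10 did not overlap in IFNARko against WT, Syt1 1431191_a_at (higher) and Syp 1456249_x_at (lower), beside 27.3% of all probe sets. For so few probe sets these shares are close to the background.

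The double knockout was also set against each single knockout, and the interaction asked whether the Usp18 knockout had another effect with the receptor gene intact than without it. Against USP18ko, 0 of the 10 probe sets were called, beside 1.19% of all. At an unadjusted p under 0.05, 0 passed, beside 4.53%. The arrays did not overlap for 1 of the 10, Gad1 1416562_at (0.31, SE 0.45, limma adjusted p = 1.00), beside 16.5%. Without IFNARko replicate 1, again 0 were called (1.56% of all) and 0 passed unadjusted (7.67%). The 10 differences ran from -0.20 at Syp 1456249_x_at to 0.31 at Gad1 1416562_at, with a median of 0.02.

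Against IFNARko, the double knockout had 0 of the 10 probe sets called, beside 0% of all, and 0 with an unadjusted p under 0.05, beside 8.35%. The arrays did not overlap for 1 of the 10, Nefl (-0.06, SE 0.09), beside 19.5%. The 12-array differences were led by Syt1 1421990_at (0.91, SE 0.54), Gad1 1416562_at (0.83, SE 0.45) and Syp 1448280_at (0.51, SE 0.27), and these were 0.04, 0.10 and 0.09 without IFNARko replicate 1. Without that array 0 were called (0.00442% of all), and 1 passed unadjusted, Gad2, beside 5.13%. Then 4 of the 10 did not overlap, beside 33.4%: Gad2, Snap25 and Nefl lower and Syp 1456249_x_at higher in the double knockout.

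For the interaction, 0 of the 10 were called, beside 0.703% of all probe sets, and 0 passed unadjusted, beside 4.11%. Without IFNARko replicate 1 the counts were 0 (0.729% of all) and 0 (5.15%). The widest value with 12 arrays, 0.69 at Syt1 1421990_at (SE 0.77), was -0.18 (SE 0.29) without that array. In these comparisons of the double knockout with single knockouts, Xist and Eif2s3y differed too, as given above, and their part was not tested.

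The size of change these arrays can bound differed between genes. For IFNARko against WT the 95% limits of the 10 differences reached from -1.81 to 0.97 with 12 arrays, and from -0.53 to 1.17 without IFNARko replicate 1. With 12 arrays, those of USP18ko from WT reached from -0.97 to 1.40, and without IFNARko replicate 1 from -0.43 to 0.66. For double knockout against WT they reached from -0.90 to 1.5, or from -0.49 to 0.88 without that array. The small number of arrays limits the precision, and an exact two-sided test of 3 against 3 arrays cannot go below p = 0.1.

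For each gene's brighter probe set, the genes most alike over the 11 arrays were looked up among 12392 others. Snap25 ran most closely with Nptn (Pearson r = 0.93, Spearman rho = 0.89) and Mettl7a2 (r = 0.93), with r = 0.80 and 0.82 over all 12 arrays. Nefl ran with Gramd3 (r = 0.96 over 11 arrays, 0.79 over 12) and Frmd8 (0.94 and 0.60). Syt1 ran with Tmem263 (0.89 and 0.75) and Rragd (0.86 and 0.94), and Syp with Rab11a (0.91 and 0.47) and Tle5 (0.89 and 0.99). Gad1 ran with Lrwd1 (0.92 and 0.46) and Ccdc65 (0.90 and 0.66), Gad2 with Fgf13 (0.94 and 0.16) and Nrg3 (0.94 and -0.07), and Th with Sec23a (0.91 and -0.68) and Olfr16 (0.89 and 0.20). These are the highest of many values over few arrays, and no test is given.

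Other neuronal genes were read from 6 lists covering glutamate and GABA transmission, monoamine neurons, vesicle fusion, the neuronal cytoskeleton and regional neuron types. The lists were not limited to genes of neurons alone, and the regional list includes Ttr, a choroid plexus gene. Of 131 listed genes 103 had a value. With 12 arrays, 0 rose and 0 fell in double knockout, USP18ko or IFNARko against WT. At an unadjusted p under 0.05 there were 6, 3 and 4 of the 103 genes in that order of genotypes. The shares over all probe sets were 4.2%, 4.01% and 9.17%. Median log2 differences of the 103 genes were 0.02 in the double knockout, -0.02 in USP18ko and -0.05 in IFNARko. For double knockout against USP18ko, double knockout against IFNARko and the interaction 0 were called as well. There, 1, 9 and 1 of the 103 genes had an unadjusted p under 0.05, beside 4.53%, 8.35% and 4.11% of all probe sets. Against USP18ko the widest value of each list in the double knockout was at Gabra3 (0.64), Camk2a, a synaptic kinase gene (0.42), Avp (-0.40), Sncg (0.39), the axonal motor gene Kif5a (0.28) and Pclo (0.26). Against IFNARko it was at Gabra3 (1.08), Map2 (0.79), Avp (0.70), Sncg (0.67), Rab3a (0.67) and Dlg4 (0.67). Most of these rested on IFNARko replicate 1: without it they were 0.24 at Gabra3, 0.08 at Map2, 0.12 at Rab3a and 0.23 at Dlg4, beside 0.50 at Avp and 0.56 at Sncg.

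The largest differences of USP18ko from WT on these lists were in Avp, the vasopressin gene of hypothalamic neurons, and Map2, a dendritic microtubule protein gene. Avp read 8.58, 9.23 and 8.30 in USP18ko, against 7.46, 7.70 and 7.60 in WT, without overlap. The difference was 1.11 (SE 0.24, limma adjusted p = 0.0683), and without IFNARko replicate 1 (SE 0.21, adjusted p = 0.0244) or without USP18ko replicate 3 (1.32, adjusted p = 0.0418) it was called. In the double knockout Avp read 8.28, 7.98 and 8.64, also above all WT arrays (0.71, SE 0.24, adjusted p = 0.996). Gch1, which encodes the first enzyme for the cofactor that tyrosine hydroxylase needs, read 6.15, 5.89 and 6.16 in USP18ko, against 5.39, 5.74 and 5.17 in WT. Its difference was 0.64 (SE 0.14, limma adjusted p = 0.0775), and it was called without WT replicate 2 (0.79, adjusted p = 0.0110). That fit also called Sncg, a synuclein gene, in USP18ko against WT (1.43, adjusted p = 0.0149). In the same comparison Th differed by -0.17 (95% interval -0.70 to 0.36), and neither Gch1 nor Th was called with 12 arrays. Which cells the Gch1 signal came from was not tested. The widest value of each other list was at Map2 (0.75), Gabrd, a GABA receptor subunit gene (-0.32), Synpr, a vesicle protein gene (-0.29), and Grin2c, an NMDA receptor subunit gene (-0.23), none of which was called.

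In double knockout against WT the widest value of each list was at Sncg (0.97), Map2 (0.97), Gabra6, the GABA receptor subunit of cerebellar granule cells (-0.94), Gabra3, another subunit (0.84), the AMPA receptor subunit gene Gria4 (0.45) and the active zone gene Pclo (0.41). Map2 read 9.29, 8.93 and 8.85 in the double knockout, against 7.57, 7.70 and 8.90 in WT, so WT replicates 1 and 2 lay apart from WT replicate 3. WT replicate 2 held the highest Gabra6 (5.33, against 3.09 to 3.85 in the other 11 arrays) and the highest Sncg (8.50, against 5.63 to 7.84). Without it the difference of double knockout against WT shrank to -0.34 at Gabra6 and grew to 1.82 at Sncg (limma adjusted p = 0.0990). The myelin genes Mog and Mobp did the same, Mog at 7.32 against 3.11 to 4.87 and Mobp at 9.55 against 3.87 to 7.68. In that array the 10 member probe sets deviated from the mean of the other WT replicates by -0.51 to 0.26. The part of tissue makeup in these values was not tested.

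In IFNARko against WT the widest value of each list was at Gabra6 (-0.70), the vesicle GTPase gene Rab3a (-0.60), the interneuron gene Pvalb (-0.57), the neuronal surface gene Thy1 (-0.55), the postsynaptic scaffold gene Dlg4 (-0.50) and Foxa1 (0.46), a transcription factor gene of midbrain dopamine neurons. Gabra6, low on the scale, read 3.67, 3.34 and 3.31 in IFNARko, against 3.62, 5.33 and 3.46 in WT. Its difference thus rested on WT replicate 2. Rab3a, Thy1 and Dlg4 read 9.71, 9.70 and 8.23 in IFNARko replicate 1, against 11.28 to 11.55, 10.45 to 11.28 and 9.44 to 9.85 in the other 11 arrays. These 3 genes thus followed the same array as Syt1 and Th, and without it the differences were -0.06 at Rab3a, -0.26 at Thy1 and -0.06 at Dlg4, with 0.20 at Foxa1. By list, IFNARko replicate 1 differed from the mean of the other IFNARko arrays by a median of -0.70 for cytoskeleton genes, -0.53 for glutamate genes, -0.33 for GABA genes, -0.15 for fusion genes, 0.01 for regional markers and 0.25 for monoamine genes, beside 0.11 over all probe sets. The low values were not limited to neuronal lists: the median was -0.38 for oligodendrocyte and myelin genes, against -0.06 for endothelial, 0.02 for microglia and 0.01 for astrocyte markers.

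**Figure D4:**
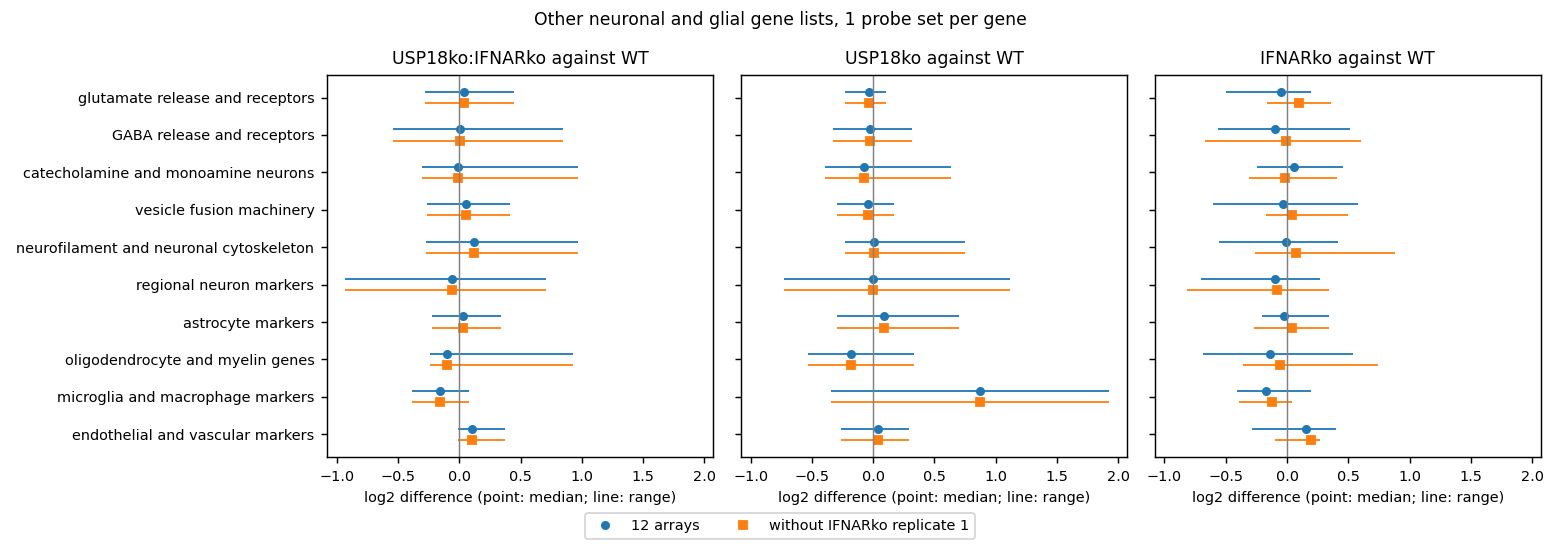
Median (points) and range (lines) of the log2 differences from WT over the measured genes of 6 neuronal and 4 glial or vascular lists, with 12 arrays (circles) and without IFNARko replicate 1 (squares). The neuronal medians lie near 0 in each panel, between -0.10 and 0.12 with 12 arrays, while the microglia list stands at 0.87 in USP18ko.

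Markers of glial and vascular cells, which total brain also holds, were set beside the neuronal genes. Of 12 measured microglia and macrophage markers, 4 rose in USP18ko against WT, beside 0.977% of all probe sets. They were Aif1 (1.93, SE 0.29, limma adjusted p = 0.00447), Ctss (1.91, SE 0.25, adjusted p = 0.00132), C1qa (1.79) and Itgam (0.80). The list median was 0.87, and the differences ran from -0.35 to 1.93. The calls of Aif1 and Ctss held without each array in turn. That of Itgam was lost without WT replicate 2 (0.74, limma adjusted p = 0.0730), or without WT replicate 3 or either of USP18ko replicates 2 and 3, and that of C1qa held only without WT replicate 2 or IFNARko replicate 1. Over the list the mean signal ran from 7.95 to 8.54 in USP18ko, while in WT it ran from 6.64 to 7.80. In double knockout against USP18ko 5 of these markers fell, beside 1.19% of all probe sets called, led by Ctss (-2.16), Aif1 (-2.31) and C1qa (-1.91). The differences of the list ran from -2.31 to 0.21 there. In the interaction Ctss (-2.19) and Aif1 (-2.17) were called, beside 0.703% of all probe sets. The count of 5 was 2 without any one of USP18ko replicates 2 and 3 and the 3 double knockout replicates, 3 without WT replicate 3 and 7 without WT replicate 1. The interaction call of Aif1 held only without WT replicate 1, WT replicate 2 or IFNARko replicate 2, and was lost without each of the other 9 arrays, with adjusted p of 0.0504 to 0.132 by limma. In the USP18ko arrays the mean over the 7 neuronal genes, each by its brighter probe set, was 9.88, 10.04 and 9.90, against 9.94, 9.95 and 10.05 in WT. Of 10 astrocyte, 10 oligodendrocyte and 11 endothelial markers, 0 were called in each of the 6 comparisons. The part of other cell types in the neuronal levels was not tested.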

How the data were processed

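Total RNA of mouse brain was labelled in a one-cycle 3' protocol and hybridised to 1-colour arrays, per the labels' protocols. The deposited values are log2 signals as the authors processed them; the tool affy is named, per the submitters' processing notes, and no source used here gives the background correction or normalization. The values ran from 2.36 to 13.81 with array medians of 6.98 to 7.07, from which base 2 was inferred. No scanner files or detection calls were used. Of 22690 probe sets, 64 controls were left out of the tests; 20380 were annotated to 1 gene, 691 to several and 1555 were unnamed here. All 12 arrays entered 1 limma fit (version 3.58.1, R 4.3.3) that modelled genotype alone (8 residual and 3.79 prior degrees of freedom, or 7 and 4.54 for 11 arrays). Tests were two-sided with Benjamini-Hochberg adjustment over 22626 probe sets, and the procedure was tested on simulated data.

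Groups followed the genotype label, and 6 comparisons were made. The members and gene lists were chosen with earlier results of these data known. Named were all member probe sets, Usp18 and Ifnar1, up to 3 called genes of a list or else the gene with the largest difference, and the 2 genes most correlated with each member. Exceptions, chosen after their values were seen, are the sex-linked transcripts, the RNA controls, C1qa, and Sncg where it was called without 1 array. Listed genes were read from the probe set with the highest mean. Replicate numbers were not taken as pairs: deviations of same-numbered arrays correlated by -0.26 to 0.26, above 0.1 in 6 of 18 pairs. Alternatives were 1 probe set per gene, a filter at the 40th percentile of mean signal, median centring, quantile normalization, array weights, a trended and robust variance, only the groups compared, the replicate number as a block, and each array left out. Gene-by-gene array weights were chosen after seeing the data.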

Additional observations from a re-analysis of the deposited data

How the results depend on the processing

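The count of called neuronal probe sets was 0 in each of the 6 comparisons, and it stayed 0 with 1 probe set per gene, above the 40th percentile of signal, with quantile normalization, median centring, a trended and robust variance, only the groups compared (not run for the interaction), the replicate number as a block, and each of the 12 arrays left out in turn (0 to 0). With default array weights, 5 were called in IFNARko against WT, 2 in double knockout against WT and 1 in double knockout against IFNARko. Of all 22626 probe sets, the same weights called 13339, 7872 and 4529 in that order of comparisons. The estimation of these weights stopped before it converged and gave WT replicate 3 a weight of 65.9, against 0.06 to 8.52 for the others. With gene-by-gene weights, 1 was called in IFNARko against WT, Syp 1456249_x_at (-0.28, limma adjusted p = 0.0354), beside 2884 of all 22626 probe sets. Gad2 in IFNARko against WT reversed to 0.17 (limma adjusted p = 0.00272) under default weights. These weights gave IFNARko replicate 1 the 0.06, and without that array the Gad2 difference was 0.21. The cause of the reversal was not tested. Of the 60 differences, 16 changed sign with gene-by-gene weights, 15 with default weights, 11 without IFNARko replicate 1 and 7 without WT replicate 2. In this balanced design the replicate block cannot move a difference, only its error. By number, 7 of 12 arrays correlated best with their own number. The percentile filter tested 9 member probe sets and the 1 probe set per gene setting 7.

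With 3 arrays a genotype, no detection calls and an unknown background, whether low signals such as those of Syp 1456249_x_at and Usp18 lay above background is unknown, and small differences could not be resolved. Among the 103 other neuronal genes, 1 rose in USP18ko against WT with 1 probe set per gene, beside 143 called of 12393. In that comparison 2 rose without WT replicate 2, beside 223 called of all 22626 probe sets. With default weights 8 rose and 5 fell there, beside 1812 of all. In IFNARko against WT 34 rose and 26 fell with default weights (13339 of all), and 9 rose and 2 fell with gene-by-gene weights (2884). In double knockout against WT the counts were 26 and 12 (7872 of all), and 11 and 3 (2306). With only the groups compared, 1 fell in double knockout against USP18ko, Pvalb, beside 441 called of all 22626 probe sets. Default weights gave 1 rise there (638 of all). In double knockout against IFNARko they gave 11 rises and 5 falls (4529 of all), and in the interaction 2 and 5 (2300). Gene-by-gene weights gave 1 fall in the interaction, Gch1 (357 of all).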
